A study of Mus musculus with 16 samples.

Results

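The genes described here are named for ion channels, the subunits of the volume-regulated anion channel and the water channels (aquaporins). They were taken by symbol, as every gene with a single-gene probe set whose name starts with Kcn, Clcn, Clic, Lrrc8, Trpm, Trpv, Trpc, P2rx or Aqp, so the rule itself uses no measured value. The symbols also take in accessory subunits, an associated protein (Trpc4ap) and the opposite-strand transcripts Kcnd3os, Kcnmb4os1, Kcnmb4os2 and Trpc5os, which are not channel genes. The rule gave 146 of 19272 genes, each represented by its probe set with the highest mean. Of the 146, 48 passed a filter that asks for at least 4 of the 16 arrays above the median of all values, a log2 value of 6.83, and 98 were dim. The 48 passing genes are 32.9% of the members, against 53.1% of all genes.

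The cells came from C57BL/6 bone marrow cultured with 10 ng/mL GM-CSF to give dendritic cells, and transcript levels were read on 16 microarrays, 1 per culture. Of the 4 groups, the first was raised in normal medium (290 mOsm/L) and left without LPS, and the second was raised in normal medium and received LPS, a bacterial cell wall component, at 10 ng/mL. The third had NaCl added from day 3, which set its medium to 450 mOsm/L, and was left without LPS, and the fourth was raised in that high-salt medium and received the same dose of LPS. All cultures were collected on day 7 and plated for 6 h more, with or without LPS. The labels give each group 4 arrays from the same 4 mice, so the replicates are separate animals and GM-CSF was common to all groups. Of the 14 dendritic cell markers looked for, 13 were on the array and passed the filter, although in both groups without LPS the means of Flt3, Kit and Btla lay below 6.83, and that of Zbtb46 did at 290 mOsm.

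Cells in hypertonic medium lose water and shrink, and recover their volume by taking up salt and organic osmolytes. In the opposite case, swelling, the volume-regulated anion channel lets chloride and small organic molecules out. That channel is built from Lrrc8 proteins, of which Lrrc8a is the obligatory subunit. Potassium channels set the membrane potential of myeloid cells, and that potential drives calcium entry through channels that include the TRP family. P2X receptors open on extracellular ATP, which is a danger signal for these cells.

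The 48 passing members had means over all arrays from 6.76 to 12.13 (median 7.78), against a median of 8.39 over the 10236 genes that passed. Levels of different genes are not compared on an array, since each probe set has its own response. The families were unevenly represented above the filter, with 22 of 91 Kcn genes, 5 of 7 Clcn, 3 of 5 Clic, 4 of 5 Lrrc8, 3 of 8 Trpm, 2 of 6 Trpv, 1 of 6 Trpc, 3 of 7 P2rx and 5 of 11 Aqp genes. The dim members had means from 4.17 to 6.72, and 91 of the 98 had no array above 6.83. Just below the filter were Clic3 (mean 6.72, 3 arrays above 6.83) and Kcnq1 (mean 6.69, 2 arrays above). Just above it was Aqp5 (mean 6.76, 5 arrays above). Among the passing members 32 exceeded 6.83 on all 16 arrays, and 9 had no such array in at least 1 group. Of the 9, Clic5, Aqp2, Aqp5, Kcne1l, Kcnh3 and Kcnj11 had none at 290 mOsm without LPS, so the filter favoured a rise from that group. The others were Kcnj2, Trpm2 and Kcnj10. The standard deviation among the 4 arrays of a group lay between 0.016 and 0.319 for the passing members, with a median of 0.097.

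**Figure D1:**
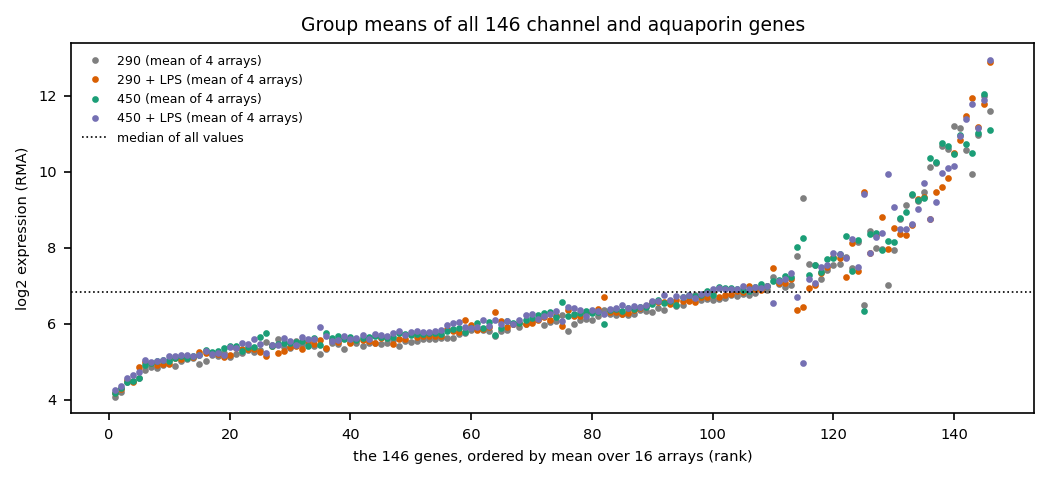
Group means on the log2 scale (vertical axis) of all 146 genes ordered by their mean over 16 arrays (horizontal axis, rank); each point is the mean of 4 arrays of a group and the dotted line is the median of all values, 6.83. The group means of Kcnj2 spread from 4.95 to 9.30 and Clic5 from 6.33 to 9.46.

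Changes below are log2 differences between group means with limma's standard error, from 4 arrays per group. Calls need a p-value under 0.05 after Benjamini-Hochberg adjustment over all 10236 genes. Salt without LPS called 17 members higher and 7 lower of 48, which is 50% of them, where 44.3% of all genes tested were called (20.6% higher and 23.7% lower). Salt with LPS called 7 higher and 7 lower, or 29.2%, against 38.6% of all genes (16.8% higher and 21.8% lower). With the mouse as a replicate block, salt with LPS called 12 members higher. LPS called 15 higher and 18 lower at 290 mOsm, or 68.8%, against 73.5% of all genes (26.4% higher and 47.1% lower). At 450 mOsm LPS called 10 higher and 17 lower, or 56.2%, against 71.8% (26.4% higher and 45.3% lower). The interaction, which is the LPS change at 450 mOsm minus that at 290 mOsm, called 9 higher and 4 lower, or 27.1%, against 21.1% (10.7% higher and 10.4% lower). The comparisons share groups, so they are not independent of each other. The median change of the 48 members was 0.11, 0.09, 0.05, -0.04 and -0.04 in these 5 comparisons, against 0.00, 0.00, -0.11, -0.09 and 0.00 over all genes tested.

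Groups without any overlap were counted too. The arrays of the compared groups did not overlap for 15 of 48 members with salt alone, against 36.8% of all genes, and for 15 with salt and LPS, against 39.4%. For LPS they did not overlap for 31 members at 290 mOsm, against 69.1% of all genes, and for 26 at 450 mOsm, against 66.2%. The split of calls over all genes moved with scaling. With median centring 1343 genes were higher and 3047 lower for salt without LPS, against 2104 and 2426. With cyclic loess 3860 were higher and 3737 lower for LPS at 290 mOsm, against 2702 and 4819, and 3728 and 3666 for LPS at 450 mOsm, against 2707 and 4641.

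The count of rises with salt alone was the least settled. It fell from 17 to 8 without the 290 mOsm replicate 1 array, to 11 without the 450 mOsm replicate 2 array, to 9 without the 450 mOsm replicate 4 array and to 9 with median centring of the arrays. Most of these rises were small: of the 17, only Aqp9, Lrrc8c and Trpv4 rose by 0.5 or more, and the others lay between 0.16 and 0.38. The 17 include Aqp2, Aqp5 and Kcnj11, which had no array above 6.83 at 290 mOsm without LPS. Dim genes also read slightly higher at 450 mOsm. Of the 9036 dim genes of the array, 80.0% had a higher mean at 450 than at 290 mOsm without LPS, with a median difference of 0.10, and 91 of the 98 dim members did (median difference 0.138). Array medians lay between 6.81 and 6.83 at 290 mOsm and between 6.84 and 6.93 at 450 mOsm. Of 20 passing members with means under 7.5, a level chosen after the values were seen, 9 were called higher and 2 lower. Of all 2780 passing genes under that level, 24.5% were called higher and 15.3% lower, and their median difference was 0.075 against 0.14 for the 20 members. The part of this drift in the small rises was not tested.

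Several lists of cell type markers moved with salt as well. Of all genes, salt called 20.6% higher and 23.7% lower without LPS, and 16.8% higher and 21.8% lower with it. All 16 neutrophil markers fell without LPS (median change -2.79), and 14 of 16 fell with it. The mean log2 level of the 16 lay between 9.51 and 10.01 on the 290 mOsm arrays and between 6.81 and 6.92 on the 450 mOsm arrays. With LPS these ranges were 9.74 to 10.13 and 7.52 to 7.73. At 450 mOsm without LPS the means of 10 of them lay below 6.83, among them Ngp, Ltf, Ly6g and Elane. The 5 mast cell and basophil markers that could be tested also fell without LPS (median -1.51), and 3 of 5 fell with it, with the mean of the 9 on the array at 6.47 to 7.04 at 290 mOsm and 5.73 to 5.87 at 450 mOsm. Of 10 macrophage markers 6 fell and 1 rose without LPS, and 6 fell and 0 rose with it. Of 5 monocyte markers 2 fell and 1 rose without LPS (median 0.25), and 3 fell and 1 rose with it (median -0.94). With LPS the mean level of these 5 lay between 9.65 and 9.92 at 290 mOsm and between 8.66 and 8.97 at 450 mOsm. In cultures measured in bulk, fewer cells of a type and less RNA per cell cannot be told apart, and the part of these shifts in the salt changes below was not tested. Both red cell and platelet markers fell with salt as well (median -1.02 without LPS and -1.06 with it). Other lists did not fall as a whole. Of 13 dendritic cell markers 2 rose and 2 fell without LPS (median 0.06), and 4 rose and 2 fell with it (median 0.12). Of 4 plasmacytoid dendritic cell markers 1 rose and 0 fell, both without and with LPS. Of 2 eosinophil markers 1 rose and 1 fell each time.

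LPS moved marker lists too, and the counts are to be read against the shares of all genes. These were 26.4% higher and 47.1% lower at 290 mOsm, and 26.4% higher and 45.3% lower at 450 mOsm. At 290 mOsm it called 3 of 4 plasmacytoid dendritic cell markers higher (median 1.03), 3 of 5 monocyte markers higher and 1 lower (median 0.84), 4 of 5 mast cell and basophil markers higher and 1 lower (median 0.80) and 7 of 16 neutrophil markers higher and 2 lower (median 0.33). The mean level of the 5 monocyte markers lay between 8.46 and 8.67 without LPS and between 9.65 and 9.92 with it, and that of the 5 plasmacytoid markers between 7.79 and 7.87 and between 8.60 and 8.70. At 450 mOsm LPS called 3 of 4 plasmacytoid and 1 of 5 mast cell and basophil markers higher and 0 lower. There it called 3 of 5 monocyte markers higher and 1 lower, and 9 of 16 neutrophil markers higher and 2 lower. Of 13 dendritic cell markers, 7 were higher and 3 lower with LPS at 290 mOsm (median 0.50). At 450 mOsm 6 were higher and 4 lower (median 0.17). Of 10 macrophage markers, 5 were higher and 5 lower at each osmolarity. The part of these shifts in the LPS changes below was not tested.

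Among the volume-regulated channel subunits, Lrrc8c went against the others under LPS. It rose 3.96-fold at 290 mOsm, while Lrrc8a, Lrrc8b and Lrrc8d each fell. Lrrc8c read 9.93, 9.98, 9.92 and 9.99 in mice 1 to 4 at 290 mOsm, and 11.97, 11.86, 11.94 and 11.98 with LPS. In high salt it read 10.53, 10.52, 10.40 and 10.52, and 11.77, 11.84, 11.74 and 11.83 with LPS. No array of any group overlapped another group. Untreated cells were lowest, followed by cells given salt alone, cells given both treatments and, highest, cells given LPS alone. The log2 change with LPS was 1.98 ± 0.05 at 290 mOsm (limma adjusted p = 1.1e-16) and 1.30 ± 0.05 at 450 mOsm (3.22e-14). Salt raised Lrrc8c by 0.54 ± 0.05 without LPS (adjusted p = 7.64e-08). With LPS the salt change was -0.14 ± 0.05 (adjusted p = 0.0228), a small call that was lost in 10 of 28 alternatives, with adjusted p up to 0.146. Those alternatives include no filter, quantile normalization, cyclic loess, and leaving out the 290 mOsm with LPS replicate 1 or 4 array or the 450 mOsm with LPS replicate 1 or 3 array. The interaction of -0.68 ± 0.07 passed (adjusted p = 1.15e-06).

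Lrrc8a, the subunit without which the channel does not form, read 9.01, 9.12, 9.13 and 9.22 at 290 mOsm and 8.28, 8.31, 8.32 and 8.42 with LPS. At 450 mOsm the 4 mice gave 8.98, 8.96, 8.74 and 9.05, and 8.54, 8.55, 8.35 and 8.57 with LPS. At both osmolarities the LPS arrays lay wholly below those without it. The LPS change was -0.78 ± 0.07 at 290 mOsm and -0.43 ± 0.07 at 450 mOsm, and the difference between these of 0.35 ± 0.10 passed (limma adjusted p = 0.0145) but was lost without replicate 2 (0.106). Salt alone gave -0.18 ± 0.07, called at an adjusted p of 0.0385 and lost in 12 of 28 alternatives, with adjusted p up to 0.161. These include quantile normalization, cyclic loess, and leaving out the 290 mOsm replicate 2, 3 or 4 array or the 450 mOsm replicate 2 or 3 array. Salt with LPS gave 0.17 ± 0.07 (adjusted p = 0.0638 in limma), which passed with the replicate block (0.0284), with cyclic loess (0.0367), and without the 290 mOsm with LPS replicate 4 array (0.048), the 450 mOsm replicate 3 array (0.0311) or the 450 mOsm with LPS replicate 3 array (0.0234).

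Lrrc8b fell with LPS by 0.57 ± 0.07 at 290 mOsm and by 0.50 ± 0.07 at 450 mOsm, and Lrrc8d by 0.41 ± 0.07 and by 0.27 ± 0.07. With cyclic loess the Lrrc8d change at 450 mOsm did not pass (adjusted p = 0.143 in limma). Neither gene was called for salt, although the Lrrc8d change with LPS, 0.14 ± 0.07, passed without the 290 mOsm with LPS replicate 4 array (0.0326 in limma). Their salt changes were -0.07 ± 0.07 and 0.01 ± 0.07 without LPS, and the second of these had a 95% interval from -0.14 to 0.15. Lrrc8e was dim. In the RefSeq table Lrrc8b and Lrrc8c are direct neighbours on chromosome 5, and 1 other coding gene lies between Lrrc8c and Lrrc8d, so genes next to each other moved in opposite directions under LPS.

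**Figure D2:**
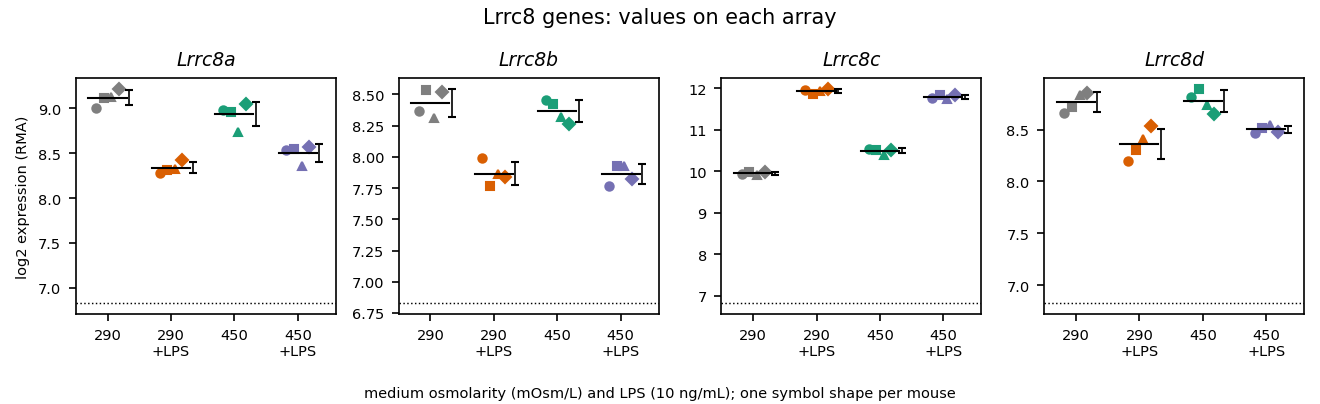
Log2 expression (vertical axis) of the 4 passing Lrrc8 genes in each group (horizontal axis, medium osmolarity and LPS); a point is 1 array, a symbol shape is 1 mouse, the line is the mean, the bar its SD over 4 arrays and the dotted line 6.83. Lrrc8c is highest with LPS, at 11.74 to 11.98, while Lrrc8a, Lrrc8b and Lrrc8d are lower with LPS than without it at both osmolarities.

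The bases before the start of 3 members with large LPS changes are shown, because those genes moved in opposite directions. They are from the RefSeq promoter table (GRCm38.p6), 5′ to 3′ on the gene's strand, without transcribed bases. For Lrrc8c the stretch is chr5:105519221-105519344 on the plus strand, for Clic4 chr4:135272761-135273010 on the minus strand and for Kcnj2 chr11:111065914-111066163 on the plus strand. Capitals mark matches to the motifs named after them.
Lrrc8c: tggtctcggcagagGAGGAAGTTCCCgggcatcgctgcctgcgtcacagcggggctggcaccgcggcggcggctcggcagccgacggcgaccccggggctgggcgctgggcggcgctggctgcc
Clic4: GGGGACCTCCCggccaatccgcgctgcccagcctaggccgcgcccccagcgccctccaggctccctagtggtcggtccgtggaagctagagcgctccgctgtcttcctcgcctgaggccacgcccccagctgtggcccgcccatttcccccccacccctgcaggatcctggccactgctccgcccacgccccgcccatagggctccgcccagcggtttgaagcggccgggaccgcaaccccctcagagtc
Kcnj2: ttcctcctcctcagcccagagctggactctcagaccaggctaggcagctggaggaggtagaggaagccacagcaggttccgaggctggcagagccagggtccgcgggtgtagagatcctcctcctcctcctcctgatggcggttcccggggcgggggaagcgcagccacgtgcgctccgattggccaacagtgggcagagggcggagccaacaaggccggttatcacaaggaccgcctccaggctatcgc

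The motifs were searched on both strands in windows of 250 bases before and 50 after each annotated start. In Lrrc8c the capitals hold a PU.1 motif (GAGGAAGT) and, overlapping it on the other strand, a kappaB motif, the consensus bound by NF-kB. In Clic4 they hold overlapping kappaB matches, and the Kcnj2 stretch holds none of the motifs. By gene, kappaB matches were in 6 members. With LPS in normal medium, Lrrc8c and Clic4 of these were called higher, and Lrrc8b, Kcnn4, Trpv2 and Clic1 lower. Whether the matches bear on the direction of change was not tested. The table had windows for 40 of the 48 passing members, 51 in all. A kappaB match was in 11.8% of these and in 8.5% of all 32851 windows, the AP-1 motif TGACTCA in 7.8% and 5.2%, and the PU.1 motif in 7.8% and 3.2%. The PU.1 count includes 1 stretch of Trpv2 that lies in a pair of overlapping windows, so by gene it was found in 3 of 40 members. The NFAT core TGGAAA was in 9.8% of member windows and 21.4% of all windows. The longer TonE motif of the osmotic factor Nfat5, which holds the NFAT core, was in 0 of the 51 windows and in 5.0% of all, and the interferon-stimulated response element (ISRE) in 0 of 51 and in 3.4% of all. A match is a description of letters and not a site, and no match says only that those letters are not in the window.

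The Clcn genes encode chloride channels and chloride-proton exchangers, most of them in endosomes and lysosomes. LPS moved all 5 passing members at 290 mOsm, 2 higher and 3 lower. It called 73.5% of all genes there (26.4% higher and 47.1% lower). Clcn7, the lysosomal exchanger, rose by 0.90 ± 0.06 and Clcn6, which is found in late endosomes, by 0.85 ± 0.07. Clcn4 fell by 0.79 ± 0.06 and Clcn3 by 0.54 ± 0.10, both exchangers of the endosomal pathway. At 450 mOsm LPS moved these 4 the same way, by 0.66 ± 0.06, 0.46 ± 0.07, -0.79 ± 0.06 and -0.46 ± 0.10.

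Clcn5, another endosomal exchanger, was the Clcn gene whose LPS change turned with salt. It read 9.50, 9.51, 9.43 and 9.45 at 290 mOsm, and 9.30, 9.26, 9.44 and 9.38 with LPS. At 450 mOsm it read 9.36, 9.36, 9.29 and 9.19, and 9.73, 9.76, 9.63 and 9.69 with LPS, so the 4 arrays with both treatments were the highest of the 16. LPS raised it by 0.40 ± 0.05 at 450 mOsm (limma adjusted p = 2.11e-06), and the interaction was 0.53 ± 0.08 (adjusted p = 6.36e-05). The change of -0.13 ± 0.05 at 290 mOsm was called (adjusted p = 0.0396) but lost in 10 of 28 alternatives, among them leaving out the 290 mOsm replicate 1 or 2 array or the 290 mOsm with LPS replicate 1 or 2 array. With cyclic loess it became 0.02 (adjusted p = 0.715). Salt raised Clcn5 by 0.36 ± 0.05 with LPS and gave -0.17 ± 0.05 without it. That smaller call was lost with cyclic loess, without replicate 1 or 4, and without the 450 mOsm replicate 4 array (adjusted p up to 0.0967 in limma).

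Clcn6 read 8.83, 8.69, 8.82 and 8.91 at 290 mOsm with LPS and 8.34, 8.49, 8.29 and 8.44 at 450 mOsm with LPS. The groups did not overlap, and salt with LPS lowered Clcn6 by 0.42 ± 0.07 (limma adjusted p = 0.000164). Without LPS the salt change was -0.02 ± 0.07 (adjusted p = 0.802 in limma). The interaction of -0.40 ± 0.10 passed (adjusted p = 0.00879) and was lost without replicate 1 (0.108). For Clcn7 the salt change without LPS was 0.16 ± 0.06 (adjusted p = 0.0511) and the interaction -0.23 ± 0.09 (0.0718). Both passed in limma with the replicate block, at 0.0263 and 0.0363, and both passed without the 290 mOsm replicate 4 array (0.0189 and 0.0308), the 290 mOsm with LPS replicate 2 array (0.0496 and 0.0493) or the 450 mOsm replicate 3 array (0.0282 and 0.0426). The first also passed without the 290 mOsm with LPS replicate 4 array (0.0334). Clcn1 and Clcn2 were dim.

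The Clic proteins are chloride intracellular channels, found both free in the cytosol and in membranes. Clic5 had the highest LPS rise of the 48 members, 7.76-fold at 290 mOsm and 8.46-fold at 450 mOsm. It read 6.57, 6.66, 6.38 and 6.40 at 290 mOsm and 9.46, 9.26, 9.45 and 9.66 with LPS. In the 450 mOsm cultures it read 6.36, 6.33, 6.27 and 6.36, and 9.34, 9.55, 9.38 and 9.36 with LPS. All 8 arrays without LPS lay below 6.83, so the gene passed the filter only through its LPS arrays and had to differ, and its folds rest on dim values. The log2 changes were 2.96 ± 0.08 and 3.08 ± 0.08, and the interaction of 0.12 ± 0.11 was not called (adjusted p = 0.485 in limma). The salt change without LPS was -0.17 ± 0.08 (adjusted p = 0.0801), which passed with quantile normalization (0.00741), median centring (0.0297) and without the 290 mOsm replicate 3 array (0.0464).

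Clic4 was well above the filter on all 16 arrays. It read 11.65, 11.69, 11.41 and 11.60 at 290 mOsm and 12.89, 12.84, 12.88 and 12.90 with LPS. At 450 mOsm it read 11.01, 10.99, 11.07 and 11.34, and 12.97, 12.91, 12.96 and 12.91 with LPS. Salt lowered it in the arrays without LPS, by 0.48 ± 0.07 (limma adjusted p = 3.49e-05), while the change with LPS was 0.06 ± 0.07 (adjusted p = 0.499), with the 4 high-salt arrays just above the others. LPS raised it by 1.29 ± 0.07 at 290 mOsm and by 1.84 ± 0.07 at 450 mOsm, and this difference of 0.55 ± 0.10 passed (adjusted p = 0.000635). The LPS arrays lie near the top of the scale of these arrays, whose highest value was 14.32. Clic1 had a similar sign pattern for salt, with -0.19 ± 0.04 without LPS, 0.10 ± 0.04 with LPS (adjusted p = 0.0689 in limma) and an interaction of 0.30 ± 0.06. The change with LPS passed with the stricter filter, quantile normalization and cyclic loess, and without the 290 mOsm with LPS replicate 4 array (0.0359). LPS lowered Clic1 by 0.32 ± 0.04 at 290 mOsm. At 450 mOsm the change was -0.03 ± 0.04, which passed with quantile normalization (0.000614).

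Of the 22 passing Kcn genes, LPS at 290 mOsm called 5 higher (22.7%, against 26.4% of all genes) and 7 lower (31.8%, against 47.1%). LPS at 450 mOsm called 2 higher (9.09%, against 26.4%) and 6 lower (27.3%, against 45.3%). Salt alone called 9 higher (40.9%, against 20.6%) and 3 lower (13.6%, against 23.7%), and salt with LPS 2 higher (9.09%, against 16.8%) and 3 lower (13.6%, against 21.8%). The 9 rises with salt alone were small, between 0.16 (Kcnj8) and 0.32 (Kcnj11), and include Kcnd3os, which is not a channel gene. The largest changes among the Kcn genes were in Kcnj2, the inward rectifier Kir2.1 that holds the resting potential near the potassium equilibrium. It fell both with salt and with LPS, and was lowest with both. It read 9.50, 9.32, 8.98 and 9.41 at 290 mOsm, and 7.97, 8.29, 8.36 and 8.38 at 450 mOsm. With LPS it read 6.34, 6.19, 6.55 and 6.63 at 290 mOsm, and 4.80, 4.87, 5.26 and 4.89 at 450 mOsm. The 4 groups do not overlap. Salt gave -1.05 ± 0.13 without LPS (limma adjusted p = 3.79e-06) and -1.47 ± 0.13 with LPS (6.63e-08). LPS gave -3.30 ± 0.13 at 450 mOsm and -2.87 ± 0.13 at 290 mOsm. The interaction of -0.42 ± 0.18 did not pass (adjusted p = 0.107 in limma), but did without the 450 mOsm replicate 1 array (0.0433) or the 450 mOsm with LPS replicate 3 array (0.0371). The 8 LPS arrays lay below 6.83, so Kcnj2 passed the filter only through the groups without LPS and had to differ with LPS. Its LPS changes and its salt change with LPS rest on dim values. The neighbouring inward rectifier gene Kcnj16 was dim.

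Kcnj10, the inward rectifier Kir4.1, also fell with LPS, by 1.43 ± 0.08 at 290 mOsm and by 1.33 ± 0.08 at 450 mOsm. It read 7.65, 7.82, 7.93 and 7.78 at 290 mOsm and 6.44, 6.26, 6.34 and 6.41 with LPS. At 450 mOsm the mice gave 8.21, 7.90, 8.02 and 7.99, and 6.89, 6.68, 6.62 and 6.59 with LPS. With LPS 7 of the 8 arrays lay below 6.83, so Kcnj10 passed the filter through the arrays without LPS, which fixes the direction of its LPS change. Salt raised it by 0.33 ± 0.08 with LPS (limma adjusted p = 0.00237), from these dim values. Without LPS the salt change of 0.24 ± 0.08 was called at an adjusted p of 0.0198. It was lost with cyclic loess, with median centring, without replicate 1 or 4, and without the replicate 1 array of either group (adjusted p up to 0.127).

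The calcium-activated channel Kcnn4 (KCa3.1), which hyperpolarises immune cells when calcium rises, was lower in all 3 treated groups than in the untreated one. It read 11.13, 11.29, 11.04 and 11.32 at 290 mOsm and 10.35, 10.42, 10.46 and 10.60 at 450 mOsm. With LPS it read 10.36, 10.33, 10.57 and 10.70 at 290 mOsm, and 10.07, 10.05, 10.21 and 10.29 at 450 mOsm. Salt lowered it by 0.74 ± 0.09 without LPS (limma adjusted p = 2.91e-06) and by 0.34 ± 0.09 with it (0.00488). LPS lowered it by 0.70 ± 0.09 at 290 mOsm and by 0.30 ± 0.09 at 450 mOsm, and this last call was lost with cyclic loess (0.0721). The interaction of 0.40 ± 0.12 was called (adjusted p = 0.0258) and lost in 9 of 27 alternatives, with adjusted p up to 0.144. Each of these left out replicate 1 or 2, the 290 mOsm replicate 2 or 4 array, the 290 mOsm with LPS replicate 1 or 2 array, the 450 mOsm replicate 1 array, or the 450 mOsm with LPS replicate 3 or 4 array.

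Its relative Kcnn3 fell with LPS at 290 mOsm by 0.64 ± 0.11, against -0.10 ± 0.11 at 450 mOsm (adjusted p = 0.418 in limma). The interaction of 0.54 ± 0.16 was called (adjusted p = 0.0186) and lost without replicate 1 or 2 (up to 0.129). Salt gave Kcnn3 -0.31 ± 0.11 without LPS (adjusted p = 0.0312), lost in 7 of 27 alternatives, 4 of which left out the replicate 1 or 2 array at 290 mOsm or the replicate 2 or 3 array at 450 mOsm. With LPS it was 0.23 ± 0.11 (adjusted p = 0.107), which passed with the replicate block (0.0391) and without replicate 3 (0.0436).

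Kcna3 (Kv1.3), a voltage-gated channel best known from lymphocytes, rose with LPS at both osmolarities, as the other Kcn gene called higher at 450 mOsm, Kcne1l, did by smaller amounts. Kcne1l had no array above 6.83 at 290 mOsm without LPS, so the filter favoured its rise there. Kcna3 read 7.75, 8.06, 8.01 and 7.99 at 290 mOsm and 8.42, 8.50, 8.51 and 8.60 with LPS. With salt it read 8.22, 8.22, 8.03 and 8.12, and 9.07, 9.17, 9.04 and 9.02 with LPS. The arrays with both treatments were the highest and overlapped no other group. LPS raised it by 0.55 ± 0.07 and by 0.93 ± 0.07 at 290 and 450 mOsm, and salt with LPS by 0.57 ± 0.07 (limma adjusted p = 3.31e-06). The interaction of 0.37 ± 0.10 (adjusted p = 0.00907) was lost without replicate 2 or 3 (up to 0.075). Salt alone gave 0.19 ± 0.07 (0.0269), lost in 8 of 28 alternatives, among them median centring and leaving out the replicate 1 array at 290 mOsm or the replicate 1 or 2 array at 450 mOsm. In the RefSeq table Kcna2 is the direct neighbour of Kcna3, and it was called in LPS at 290 mOsm (0.16) and salt without LPS (0.19).

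Kcnab2, a beta subunit of voltage-gated potassium channels, fell with LPS by 1.35 ± 0.08 at 290 mOsm (limma adjusted p = 5.21e-11) and by 1.60 ± 0.08 at 450 mOsm (4.54e-12). It read 10.07, 9.95, 10.21 and 10.22 at 290 mOsm, and 8.64, 8.57, 8.95 and 8.88 with LPS. At 450 mOsm it read 10.37, 10.45, 10.24 and 10.37, and 8.71, 8.70, 8.78 and 8.85 with LPS. Its salt change without LPS, 0.24 ± 0.08, was called (adjusted p = 0.0236) and lost with median centring and without the 290 mOsm replicate 1 or 2 array or the 450 mOsm replicate 2 array (adjusted p up to 0.162). With LPS the salt change was 0.00 ± 0.08 with a 95% interval from -0.17 to 0.17.

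The 2-pore background channels Kcnk6 and Kcnk13 also fell with LPS. The LPS change of Kcnk6 was -0.77 ± 0.08 at 290 mOsm and -1.05 ± 0.08 at 450 mOsm, and that of Kcnk13 was -0.78 ± 0.07 and -0.72 ± 0.07. Kcnk6 had a salt change of -0.25 ± 0.08 with LPS (limma adjusted p = 0.0168), lost with quantile normalization, without replicate 1, 3 or 4, without the 290 mOsm with LPS replicate 1 or 3 array and without the 450 mOsm with LPS replicate 1 array (up to 0.167). The Kcnk6 interaction of -0.29 ± 0.11 (adjusted p = 0.0702) passed without the 290 mOsm with LPS replicate 2 array (0.0213) or the 450 mOsm replicate 3 array (0.0314). Kcnk13 was not called for salt. The other 14 passing Kcn genes had no called change of 0.5 or more in any comparison. Another 69 Kcn genes were dim. Without the filter, 4 dim members had a called change of at least 0.5, all Kcn genes: Kcnab1 and Kcnd1 with LPS at 290 mOsm and Kcne3 and Kcnq3 with LPS at 450 mOsm.

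**Figure D3:**
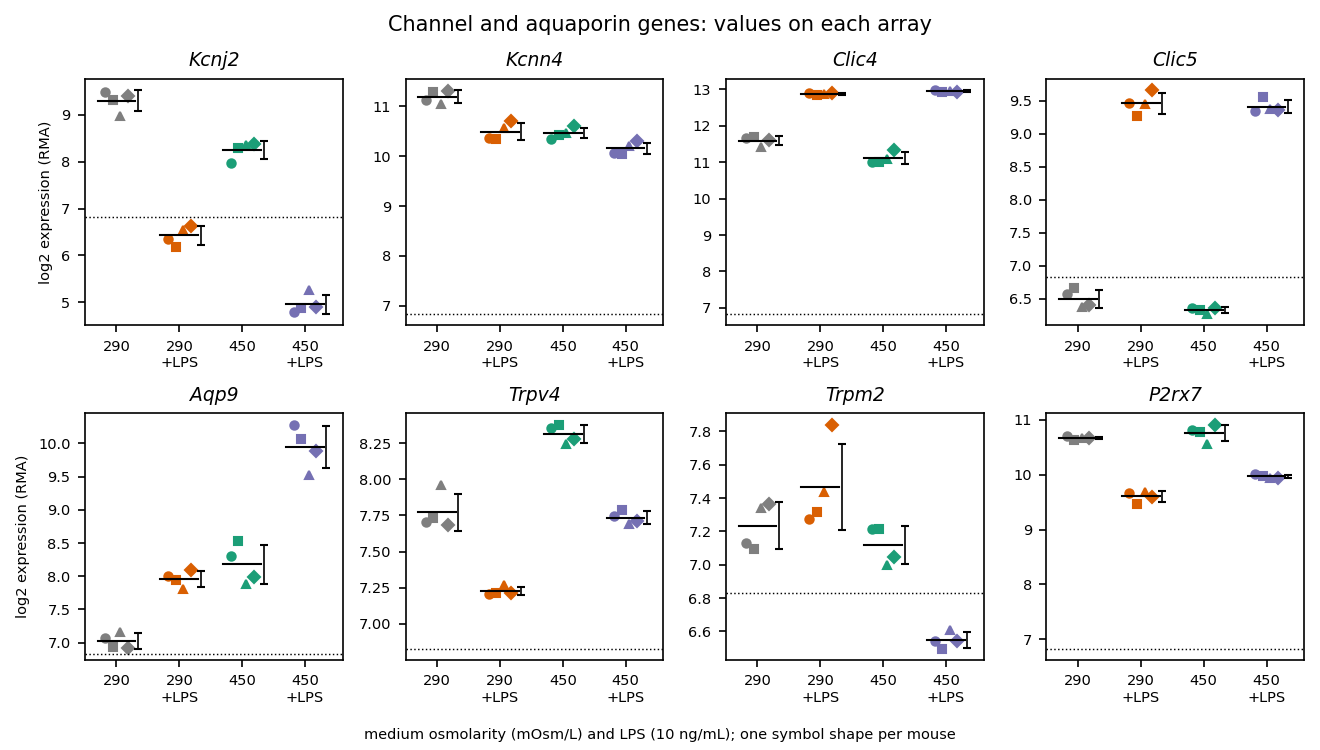
Log2 expression (vertical axes, each with its own range) of 8 members on each array, by medium osmolarity and LPS (horizontal axis); a point is 1 array, a symbol shape is 1 mouse, the line is the mean, the bar its SD over 4 arrays and the dotted line 6.83. Kcnj2 falls step by step to 4.80 to 5.26 with both treatments and Aqp9 reaches 9.53 to 10.28 there, while Clic5 is above the dotted line only with LPS.

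Of the passing Trpm, Trpv and Trpc genes, Trpv4 was the one called higher with salt both without and with LPS. It is a calcium-permeable channel gated by osmotic swelling, warmth and lipids. It read 7.70, 7.74, 7.96 and 7.68 at 290 mOsm and 8.35, 8.38, 8.25 and 8.28 at 450 mOsm. With LPS it read 7.21, 7.22, 7.27 and 7.22 at 290 mOsm, and 7.75, 7.79, 7.69 and 7.71 at 450 mOsm. Salt raised it by 0.54 ± 0.06 without LPS (limma adjusted p = 8.1e-07) and by 0.51 ± 0.06 with LPS (1.71e-06), in 4 of 4 mice each time. LPS lowered it by 0.54 ± 0.06 at 290 mOsm and by 0.58 ± 0.06 at 450 mOsm. The interaction was -0.04 ± 0.08 (adjusted p = 0.81 in limma), with a 95% interval from -0.21 to 0.13.

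Trpv2, a calcium-permeable channel with high levels in macrophages, fell with LPS by 0.75 ± 0.05 at 290 mOsm and by 0.56 ± 0.05 at 450 mOsm. Salt raised it by 0.27 ± 0.05 with LPS (limma adjusted p = 0.000226). Without LPS the salt change was 0.08 ± 0.05 (adjusted p = 0.18), which passed with cyclic loess (0.0156). The interaction of 0.19 ± 0.07 (adjusted p = 0.0547) passed with the stricter filter (0.0371) and without the 290 mOsm replicate 2 array (0.0302) or the 450 mOsm replicate 1 array (0.0302). Trpv1, Trpv3, Trpv5 and Trpv6 were dim.

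Trpm2, a channel opened by ADP-ribose during oxidative stress, was lowest in cells given both treatments. It read 7.13, 7.10, 7.34 and 7.37 at 290 mOsm and 7.27, 7.32, 7.44 and 7.84 with LPS. The 450 mOsm cultures gave 7.22, 7.21, 7.00 and 7.05, and 6.54, 6.50, 6.61 and 6.54 with LPS, and these last 4 arrays lay below all others and below 6.83, so that Trpm2 passed the filter through the other 3 groups. Salt with LPS lowered it by 0.92 ± 0.10 (limma adjusted p = 1.16e-06), and without LPS its change was -0.12 ± 0.10 (adjusted p = 0.357). The interaction was -0.80 ± 0.14 (adjusted p = 0.00045), and LPS at 450 mOsm gave -0.57 ± 0.10. Salt with LPS, LPS at 450 mOsm and the interaction all use the dim values of the cells given both treatments. The filter favoured a negative change of Trpm2 in each. The LPS change of 0.23 ± 0.10 at 290 mOsm was called (0.0437) and lost in 12 of 27 alternatives. Those include leaving out the replicate 1 or 2 array at 290 mOsm, the replicate 3 or 4 array at 290 mOsm with LPS, or the replicate 1 or 4 array at 450 mOsm with LPS (adjusted p up to 0.214).

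Trpm4, a calcium-activated cation channel that depolarises the cell, rose with LPS by 0.68 ± 0.07 at 290 mOsm and by 0.84 ± 0.07 at 450 mOsm and was not called for salt. Trpm7, a magnesium-permeable channel joined to a kinase, had a salt change of -0.28 ± 0.09 with LPS (limma adjusted p = 0.0181), lost without replicate 1 or 2 and without the 290 mOsm with LPS replicate 1 array or the 450 mOsm with LPS replicate 4 array (up to 0.0789). Its LPS change at 450 mOsm, -0.25 ± 0.09, was lost in 8 of 28 alternatives, among them cyclic loess, median centring and leaving out the 450 mOsm replicate 1 or 3 array or the 450 mOsm with LPS replicate 4 array (up to 0.238). Its LPS change at 290 mOsm was 0.05 ± 0.09 (adjusted p = 0.588 in limma) and passed with cyclic loess (0.0291), and its interaction of -0.30 ± 0.12 passed with the replicate block (0.0496) and without the 450 mOsm replicate 4 array (0.00956). Of the Trpc genes, Trpc4ap alone passed the filter, and it is not a channel but an associated protein.

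P2rx7, the ATP-gated channel known for activating the inflammasome, fell with LPS. It read 10.70, 10.64, 10.68 and 10.67 at 290 mOsm, and 9.66, 9.47, 9.69 and 9.60 with LPS. At 450 mOsm it read 10.81, 10.78, 10.56 and 10.91, and 10.01, 9.97, 9.95 and 9.95 with LPS. The LPS change was -1.07 ± 0.06 at 290 mOsm (limma adjusted p = 4.76e-11) and -0.80 ± 0.06 at 450 mOsm (2.73e-09). In the LPS cultures all 4 high-salt arrays were above the 4 normal-salt ones, by 0.37 ± 0.06 (adjusted p = 0.000226), and without LPS the salt change was 0.10 ± 0.06 (0.239), which passed without the 450 mOsm replicate 3 array (0.0236). The interaction of 0.27 ± 0.09 was called (adjusted p = 0.0435) but lost in 18 of 27 alternatives, among them no filter, cyclic loess, leaving out any 1 mouse, and leaving out any 290 mOsm array, any 450 mOsm with LPS array, replicate 2 or 4 at 290 mOsm with LPS, or replicate 2 or 3 at 450 mOsm (up to 0.194).

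P2rx4, the neighbouring gene, had smaller LPS changes of -0.22 ± 0.04 at 290 mOsm and -0.18 ± 0.04 at 450 mOsm, the second lost with cyclic loess (0.0586 in limma). Its salt change with LPS was 0.09 ± 0.04 (adjusted p = 0.101) and passed with quantile normalization and cyclic loess. P2rx5 rose with each treatment alone, by 0.38 ± 0.09 with salt and by 0.33 ± 0.09 with LPS. With the other treatment present its changes were -0.07 ± 0.09 and -0.11 ± 0.09. The P2rx5 interaction of -0.45 ± 0.13 (adjusted p = 0.0215) was lost without replicate 1, 2 or 3 and without the 450 mOsm replicate 2 array (up to 0.197), and its LPS call at 290 mOsm without replicate 1 (0.0524). P2rx1, P2rx2, P2rx3 and P2rx6 were dim.

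Aqp9 encodes an aquaglyceroporin that passes water, glycerol and other small solutes, and it rose with salt, with LPS and most with both. It read 7.08, 6.94, 7.16 and 6.92 at 290 mOsm and 8.31, 8.54, 7.89 and 7.99 at 450 mOsm. With LPS it read 8.0, 7.94, 7.81 and 8.10 at 290 mOsm, and 10.28, 10.07, 9.53 and 9.89 at 450 mOsm. The groups given 1 treatment overlapped each other, all of their arrays lay above the untreated ones, and the 4 arrays with both treatments lay above all others. Salt raised Aqp9 by 1.16 ± 0.14 without LPS (limma adjusted p = 4.45e-06) and by 1.98 ± 0.14 with LPS (7.93e-09), a 3.95-fold rise. LPS raised it by 0.94 ± 0.14 at 290 mOsm and by 1.76 ± 0.14 at 450 mOsm. The interaction of 0.82 ± 0.20 passed (adjusted p = 0.00588), with the same sign in 4 of 4 mice. The 5 calls held in every alternative run.

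The other passing aquaporin genes, Aqp2, Aqp3, Aqp5 and Aqp12, had levels near the filter, with means of 6.83, 6.86, 6.76 and 7.11. All were called higher with salt without LPS, by 0.25 ± 0.07, 0.20 ± 0.08, 0.20 ± 0.07 and 0.29 ± 0.09, on the arrays where dim genes in general read 0.10 higher. Aqp2 had no array above 6.83 at 290 mOsm without LPS, and Aqp5 had none at 290 mOsm with or without LPS. Both passed the filter through the other groups, so the filter favoured their rise with salt. The call of Aqp3 was lost in 14 of 27 alternatives, among them quantile normalization, cyclic loess, median centring and leaving out the 290 mOsm replicate 1, 2 or 4, the 290 mOsm with LPS replicate 2, or the 450 mOsm replicate 2 or 4 array (limma adjusted p up to 0.277). That of Aqp5 was lost in 7, including the same 3 scalings and leaving out the replicate 4 array of either group (up to 0.202). That of Aqp12 was lost without replicate 1 or 4 and without the replicate 4 array of either group (up to 0.178). No call of these 4 was made for salt with LPS, where Aqp2 gave 0.16 ± 0.07 (adjusted p = 0.0758) and passed with the replicate block (0.0447) and without the 450 mOsm with LPS replicate 2 array (0.0379), or for LPS at either osmolarity, although with cyclic loess Aqp3 and Aqp12 were called with LPS at 290 mOsm. Aqp3 was also called there without the 290 mOsm replicate 3 array (0.0491) or the 290 mOsm with LPS replicate 4 array (0.0353). The RefSeq table places Aqp2, Aqp5 and the dim Aqp6 side by side. Aqp1 was dim.

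**Figure D4:**
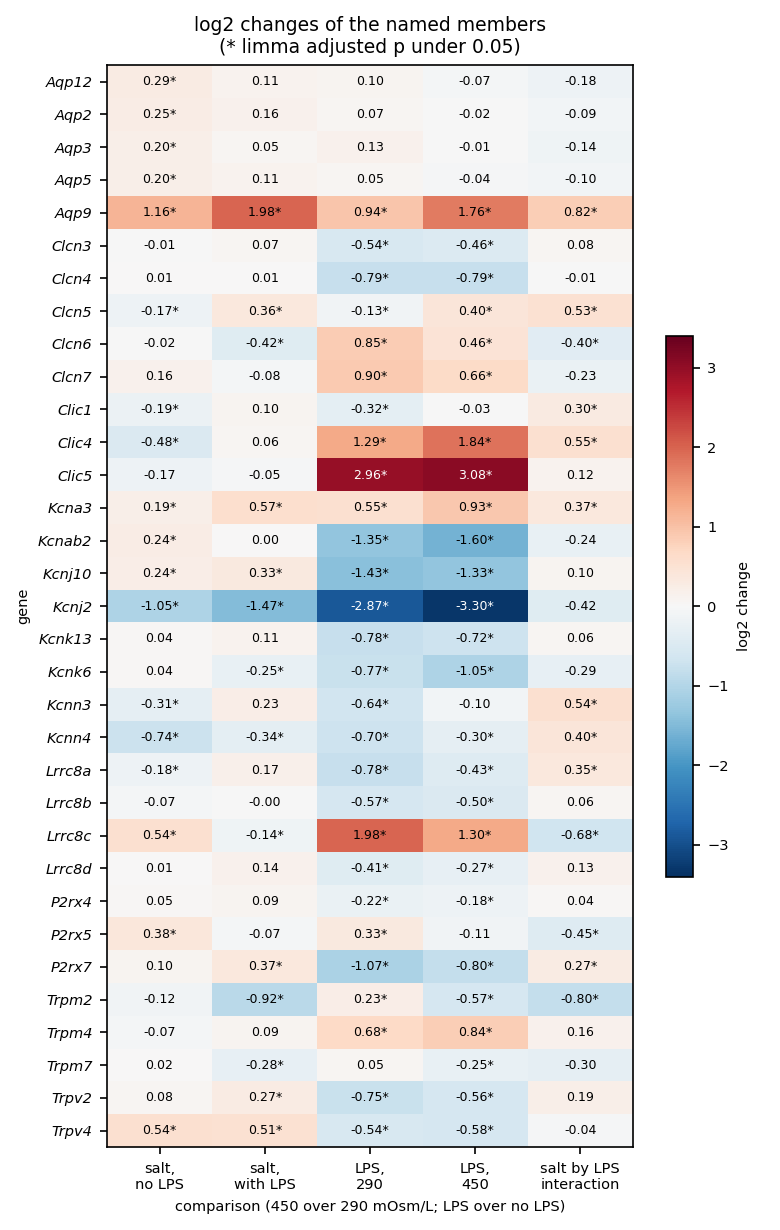
Log2 changes of the 33 named members (rows) in the 5 comparisons (columns), with red for higher and blue for lower and an asterisk for a limma adjusted p under 0.05. Kcnj2 is lower in the first 4 columns and Aqp9 higher in all 5, while Clic5, Lrrc8c and Clic4 have the 3 highest LPS rises at 290 mOsm.

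A further list held 29 symbols of other channel and volume regulation genes that the rule does not take, of which 25 were on the array and passed the filter. Salt called 6 higher and 10 lower without LPS (24% and 40%, against 20.6% and 23.7% of all genes; median -0.10, against 0.00) and 6 higher and 5 lower with it (24% and 20%, against 16.8% and 21.8%). LPS called 8 higher and 13 lower at 290 mOsm (32% and 52%, against 26.4% and 47.1%; median -0.28, against -0.11) and 10 higher and 13 lower at 450 mOsm (40% and 52%, against 26.4% and 45.3%). Pacc1, the proton-activated chloride channel, was the gene of this list with the largest salt change. It read 10.15, 9.79, 9.83 and 10.03 at 290 mOsm, and 7.83, 7.59, 7.81 and 7.75 with LPS. In salt-treated cells it read 8.32, 8.41, 8.44 and 8.68, and 7.33, 7.36, 7.48 and 7.51 with LPS, so the untreated cells had the highest level and no groups overlapped. Salt gave -1.48 ± 0.09 without LPS (limma adjusted p = 4.97e-10) and -0.33 ± 0.09 with it (0.00612). The LPS changes were -2.20 ± 0.09 and -1.04 ± 0.09, and the interaction of 1.16 ± 0.12 passed (2.72e-06).

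Among the lysosomal channels of that list, Mcoln3 rose with salt by 1.08 ± 0.07 without LPS and by 0.50 ± 0.07 with it, and fell with LPS by 1.23 ± 0.07 at 290 mOsm and by 1.81 ± 0.07 at 450 mOsm (limma adjusted p at most 1.81e-05). With LPS at 290 mOsm its 4 arrays read between 6.27 and 6.46, below 6.83. At 450 mOsm with LPS they read 6.79, 7.04, 6.82 and 6.75, and all but that of mouse 2 lay below 6.83. Mcoln3 thus passed the filter through its arrays without LPS, which favoured a fall with LPS. The salt change of Mcoln3 with LPS rests on dim values. Its relative Mcoln2 rose with LPS, by 1.19 ± 0.09 and by 1.53 ± 0.09. Salt raised Mcoln2 by 0.66 ± 0.09 with LPS and by 0.31 ± 0.09 without it, the second lost without replicate 3 (0.129 in limma). The endolysosomal cation channel gene Tpcn1 had LPS changes of -2.55 ± 0.10 and -2.49 ± 0.10, both called lower by limma. Its salt changes were -0.46 ± 0.10 without LPS and -0.39 ± 0.10 with it, the second lost without replicate 1 (0.0593). Stk39, which encodes the SPAK kinase that switches on the sodium-potassium-chloride cotransporter in shrunken cells, rose with LPS by 2.73 ± 0.10 at both osmolarities. Without LPS it read between 6.57 and 6.83 at 290 mOsm and between 6.82 and 7.07 at 450 mOsm. Both rises of Stk39 thus start from values near or below the level of the filter. Its salt changes were 0.26 ± 0.10 without LPS and 0.27 ± 0.10 with it, called at 0.0463 and 0.0488 and lost in 13 and 17 of 28 alternatives (up to 0.173 and 0.199). The scramblase and channel gene Ano6 fell with LPS by 0.92 ± 0.07 and by 1.24 ± 0.07, and with salt in the presence of LPS by 0.30 ± 0.07. Its salt change without LPS was 0.02 ± 0.07. Stim2, a sensor of calcium stores, rose with LPS by 0.76 ± 0.06 and by 1.07 ± 0.06. Salt raised Stim2 by 0.52 ± 0.06 with LPS and by 0.21 ± 0.06 without it, the second lost with median centring and without replicate 1 or 3 (up to 0.0914 in limma).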

How the data were processed

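Total RNA of 16 cultures was hybridised to microarrays, 1 array each, after biotin labelling. The deposited values are log2 expression per probe set, which the authors made with RMA in the oligo package, per the submitters' processing notes. Of the version, genome build and any filter, nothing is stated in the labels. RMA sets arrays relative to each other, so a shift of most transcripts is largely removed, and it compresses low and very high signals. The number of arrays limits the precision.

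Of 22549 probe sets, the platform annotation gives 1 gene symbol for 20646, several for 551 and none for 1352. Through Entrez identifiers 20596 matched RefSeq, with 0 symbols changed. Each gene was represented by its highest-mean probe set, which mattered for 3 members. Close paralogs can share probes. Over all 10236 genes with at least 4 arrays above 6.83, limma 3.58.1 (R 4.3.3) fitted 4 group means (12 residual and 5.53 prior degrees of freedom) with 5 two-sided contrasts. Adjusted p-values are Benjamini-Hochberg values per contrast, and intervals are 95% intervals from the moderated fit. Figures were drawn with matplotlib 3.10.9. The model was also run on simulated arrays, and no call here rests on that run.

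Members and lists were chosen with earlier results of these data known. Named members are those called with a change of at least 0.5 in any contrast, a fixed set of channel genes, and all passing Aqp, Lrrc8 and P2rx genes. Genes of the other list are named when called with a change of at least 1. The labels give the same mouse number in each group, which pairs the arrays. Deviations from group means correlated with r from -0.146 to 0.433 within a mouse (median 0.0953 over 24 pairs, 11 over 0.1), against a median of -0.0351 between mice. Alternatives were the mouse as a replicate block, no filter, a filter at the 65th percentile (7.81), quantile normalization, cyclic loess, median centring, the mean of probe sets, only the groups compared, and the omission of single mice and of single arrays.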

Additional observations from a re-analysis of the deposited data

Results flagged for a closer look

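The following values stood out by one of 2 simple rules: a culture far from the other 3 of its group, or an LPS change that differed between the osmolarities by limma's interaction test.

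In 3 of 160 groups checked (40 genes in 4 groups), the gap between 1 array and its nearest neighbour, as a share of the group's range, passed Dixon's 95% critical value. By the definition of that value, chance passes it in about 1 of 20 groups. They were Aqp5 in mouse 1 at 290 mOsm with LPS (6.52, others 6.75 to 6.79), Lrrc8a in mouse 3 at 450 mOsm with LPS (8.35, others 8.54 to 8.57) and Lrrc8c in mouse 3 at 450 mOsm (10.4, others 10.52 to 10.53).

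LPS changed the following genes more positively, or less negatively, at 450 than at 290 mOsm: Aqp9 (log2 difference 0.82), Clcn5 (0.53), Clic1 (0.30), Clic4 (0.55), Kcna3 (0.37), Kcnn3 (0.54), Kcnn4 (0.40), Lrrc8a (0.35) and P2rx7 (0.27), and outside the members Pacc1 (1.16) and Stim2 (0.31). The difference ran the other way for Lrrc8c (-0.68), Trpm2 (-0.80), P2rx5 (-0.45) and Clcn6 (-0.40), and outside the members for Mcoln3 (-0.58) and Ano6 (-0.32). The values of Trpm2 at 450 mOsm with LPS were dim, as were most values of Mcoln3 with LPS. The Ano6 call was lost without replicate 1, 2 or 3 (adjusted p up to 0.0626 in limma), and the Stim2 call without replicate 2 or 4 (up to 0.136).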

How the results depend on the processing

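Of 130 called changes of named genes, 97 passed in every alternative, and the sign turned in 1, Clcn5 with LPS at 290 mOsm (0.022 with cyclic loess). Values that were not called in either fit were not counted as turning. The replicate block lost 0 calls and gained 6, given beside the genes, and changed no other call of a named gene. It called 12 members higher for salt with LPS, against 7. Without the filter, with 146 members tested, 32 rather than 17 were called higher for salt without LPS, 15 rather than 7 for salt with LPS, 31 rather than 15 for LPS at 290 mOsm and 16 rather than 10 for LPS at 450 mOsm. These are 21.9%, 10.3%, 21.2% and 11% of the members, against 15.8%, 9.87%, 18.4% and 16.3% of all 19272 genes in that fit. For salt without LPS, 9 were called higher with the stricter filter (29 members tested) and 9 with median centring. With cyclic loess, which set the median of all genes for LPS at 290 mOsm from -0.11 to 0.02, 23 were called higher there.

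Leaving out 1 mouse gave 8 to 15 members higher and 5 to 6 lower for salt without LPS, 7 to 9 higher and 4 to 6 lower for salt with LPS, 11 to 14 and 17 to 18 for LPS at 290 mOsm, 9 to 11 and 16 to 17 for LPS at 450 mOsm, and 4 to 8 and 2 to 5 for the interaction. Leaving out 1 array gave 8 to 19 and 5 to 7, 7 to 11 and 4 to 7, 12 to 16 and 17 to 18, 9 to 13 and 16 to 17, and 7 to 9 and 3 to 7, in the same order. The 4 falls for salt with LPS came without the 290 mOsm with LPS replicate 1 array, the 11 rises without its replicate 4 array, and the 7 interaction falls without the 450 mOsm replicate 3 array.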
